A study of Mus musculus with 6 samples.

Results

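The VEGF ligands (*Vegfa*, *Vegfb*, *Vegfc*, *Vegfd* and *Pgf*), their tyrosine kinase receptors (*Flt1*, *Kdr* and *Flt4*) and the neuropilin coreceptors (*Nrp1* and *Nrp2*) were followed in RNA-Seq of isolated lung endothelial cells (iLECs) from mouse pups with or without endothelial *Atp6ap2*. *Atp6ap2* encodes the prorenin receptor, an accessory subunit of the vacuolar proton pump. The 10 genes were taken by symbol from a table of 24972 genes, and all 10 passed the filter on low values (3 or more libraries with a normalized count of 10 or higher) that left 14456 genes to test. There were 3 control and 3 *Atp6ap2* iECKO (inducible endothelial knockout) libraries. All 6 came from mice with a floxed *Atp6ap2* allele, which the labels write as fl/Y, on a strain labelled C57BL/6, whereas the study's methods give a mixed CD1 and C57BL/6 background. The iECKO mice also carried Cdh5-CreERT2, a Cre recombinase that tamoxifen activates and that the endothelial *Cdh5* promoter drives; the controls lacked it. Both genotypes received 100 µg tamoxifen on postnatal days 1 to 3, and lungs were taken on postnatal day 7. Cells were pulled from the digested lung with magnetic beads that carried an antibody to CD31, an endothelial surface protein. Whether each library was 1 animal was not stated, so p-values measure the spread between these libraries.

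VEGF ligands are secreted dimers that act on endothelial cells through receptor tyrosine kinases. VEGF-A binds both Flt1, which has weak kinase activity and acts largely as a ligand trap, and Kdr, the main signaling receptor for endothelial growth, migration and permeability; VEGF-B and placental growth factor (Pgf) bind Flt1 alone among these kinases, and VEGF-C and VEGF-D act through Flt4 on lymphatic and sprouting endothelium, VEGF-C also through Kdr once cleaved. Neuropilins lack kinase activity and hold ligand and receptor together, and they also serve as receptors for class III semaphorins. In the growing lung, VEGF-A comes largely from the alveolar epithelium and VEGF-D largely from the mesenchyme.

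The targeted gene was low in the iECKO libraries. *Atp6ap2* had 7490.2, 5815 and 5681 normalized counts in the controls and 4219.9, 2336 and 1982 in the iECKO libraries, a log2 fold change of -1.22 (SE 0.26, adjusted p = 0.0306 by limma with Benjamini-Hochberg adjustment over all genes tested). Every iECKO library lay below every control, and iECKO replicate 1 held the most remaining transcript. When 1 library was left out in turn, the difference passed in 1 of 6 fits, the one without iECKO replicate 1. Normalized library totals ran from 26243878 to 28725799; read depth itself was unknown because the deposited values were already scaled. *Xist*, the transcript of the inactive X chromosome in females, was at 19.3 and 31.7 normalized counts in 2 libraries and between 37704 and 47487 in the other 4, 2 of each genotype, which goes against a male label for those 4. Summed levels of 20 endothelial markers overlapped between genotypes (342557 to 428134 in controls and 355002 to 403364 in iECKO), and 1 of the 20, *Tek*, was lower in the iECKO libraries, a call that passed in 1 of 6 fits with a library left out. Of 12 proliferation markers 8 were higher, which became 4 without control replicate 1, 12 without control replicate 2, 3 without iECKO replicate 1 and 0 without any of the other 3 libraries. Markers of other lung cells were present in every library, and their values stand beside the members they touch.

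Of the 10 members, *Vegfd* was lower in the iECKO libraries, no member was higher, and 9 did not pass the threshold of an adjusted p below 0.05. Among all genes tested 8.25% were called in either direction, 4.97% lower and 3.28% higher. The members' median log2 fold change was 0.06, beside 0.005 for all genes tested. *Vegfa* and *Nrp2* joined *Vegfd* at an unadjusted limma p below 0.05, which 23.9% of all genes reached.

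**Figure D1:**
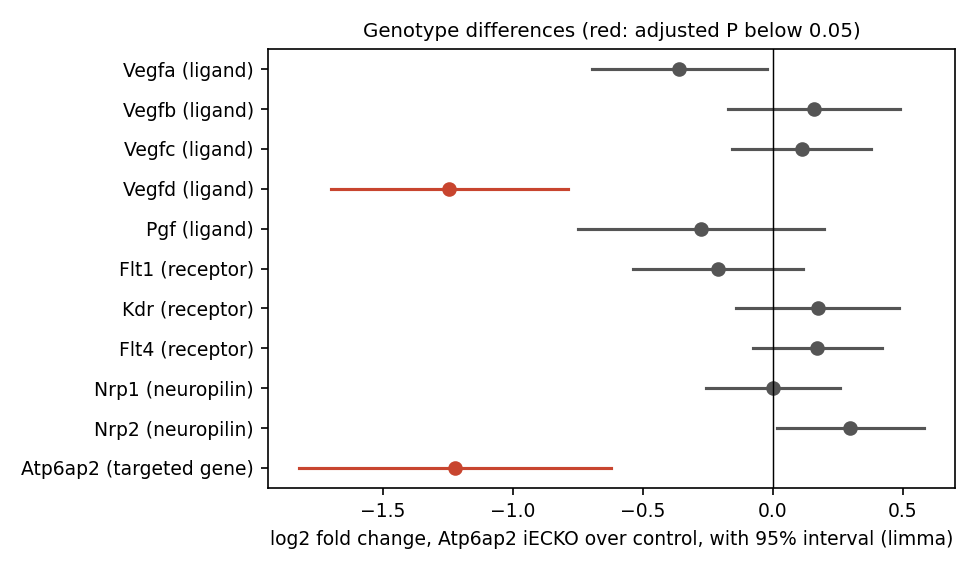
Log2 fold change (iECKO over control) on the x axis for the 10 members and the targeted gene, with 95% intervals from limma over 3 libraries of each genotype. The intervals of *Vegfd* and *Atp6ap2*, in red, lie wholly below 0 and pass the adjusted threshold, while those of *Vegfa* and *Nrp2* clear 0 without passing it.

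Promoters are shown for the member that passed the threshold, *Vegfd*, and for *Flt1* and *Kdr*, the receptor pair whose ratio is described further on. Each window is RefSeq sequence on GRCm38.p6, from 250 bases before to 50 bases after the transcript start, written 5′ to 3′ on the gene's strand. Capitals mark TATAAA (the TATA box core) and GGGCGG (the GC box bound by Sp factors), searched on both strands, so a GC box on the other strand reads CCGCCC.
*Vegfd*, chrX:164373272-164373571, plus strand: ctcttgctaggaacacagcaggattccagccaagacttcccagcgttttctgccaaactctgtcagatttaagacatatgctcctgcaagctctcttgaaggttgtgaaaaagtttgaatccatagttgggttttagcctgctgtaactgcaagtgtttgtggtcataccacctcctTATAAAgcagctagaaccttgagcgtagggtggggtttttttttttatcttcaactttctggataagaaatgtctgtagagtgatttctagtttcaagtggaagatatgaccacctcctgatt
*Flt1*, chr5:147725962-147726261, minus strand: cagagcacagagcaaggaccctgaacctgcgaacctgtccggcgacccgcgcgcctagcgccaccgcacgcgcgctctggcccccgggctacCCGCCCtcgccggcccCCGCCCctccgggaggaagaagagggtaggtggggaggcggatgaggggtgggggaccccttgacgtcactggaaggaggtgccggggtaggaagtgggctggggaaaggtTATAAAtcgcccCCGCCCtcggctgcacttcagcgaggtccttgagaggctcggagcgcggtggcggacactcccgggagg
*Kdr*, chr5:75978406-75978705, minus strand: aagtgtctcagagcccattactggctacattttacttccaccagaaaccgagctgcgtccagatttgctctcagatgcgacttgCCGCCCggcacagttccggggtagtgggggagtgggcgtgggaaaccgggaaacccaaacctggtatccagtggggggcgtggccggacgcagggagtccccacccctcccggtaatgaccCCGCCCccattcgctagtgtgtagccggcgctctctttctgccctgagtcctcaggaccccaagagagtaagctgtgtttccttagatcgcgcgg
All 10 members had an entry, in 12 windows, since *Vegfa* and *Pgf* had more than 1. TATAAA was found in 2 of the 12, starting 73 bases upstream of the RefSeq *Vegfd* start and 31 bases upstream of the *Flt1* start, and in 13.6% of all 32851 promoters. The GENCODE start of *Vegfd*, X:164373378, lies inside the window and upstream of the RefSeq start, so that distance holds for the RefSeq start only. GGGCGG was found in 10 of the 12 and in 35.7% of all promoters; the *Vegfd* window held none. TGANTCA, the element bound by Fos and Jun, was in 0 of the 12 and in 7.81% of all promoters. The *Vegfd* window had 2 CpG dinucleotides, where the other members' windows had 7 to 37 and the median of all promoters was 7. The matches describe letters in these windows and are not shown to be sites.

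Because counts rise with transcript length, levels were compared between members only as normalized counts per kilobase of annotated exon. *Kdr* was the highest member, at 4781 ± 725 per kilobase in the controls (SD, n = 3), a level above 98.8% of the 14311 genes with a length. *Nrp1* came next at 2492 ± 289.6 per kilobase and *Vegfa* at 2443 ± 539, and the control libraries of these neighbours overlapped, so their order was not settled. These levels depend on the length used: per kilobase of the longest transcript *Kdr* was at 7288, *Nrp1* at 6689, *Vegfa* at 3033, *Flt1* at 3035 and *Nrp2* at 640.4, over 1.5 times higher for all but *Vegfa*, and *Nrp1* was then nearer to *Kdr* than to *Vegfa*. Per kilobase of annotated exon *Flt1*, at 1549.6 ± 276, lay below *Kdr*, *Nrp1* and *Vegfa* in every control library. *Flt4* had 756 ± 55.8 per kilobase and *Vegfc* 641 ± 37.1, without overlap. *Nrp2* (364 ± 27.9 per kilobase) and *Vegfd* (324 ± 62.9) overlapped each other, and *Vegfb* (165 ± 18.7) and *Pgf* (104 ± 4.38) were lowest, *Pgf* still above 45.9% of genes with a length. The 3 receptors, *Nrp1* and *Vegfa* thus held the upper 5 places, and the ligands other than *Vegfa* lay below every receptor. In the iECKO libraries 8 of the 10 members kept their place, and *Vegfd*, at 137 ± 31.7 per kilobase, stood below *Vegfb*, at 184 ± 3.30.

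**Figure D2:**
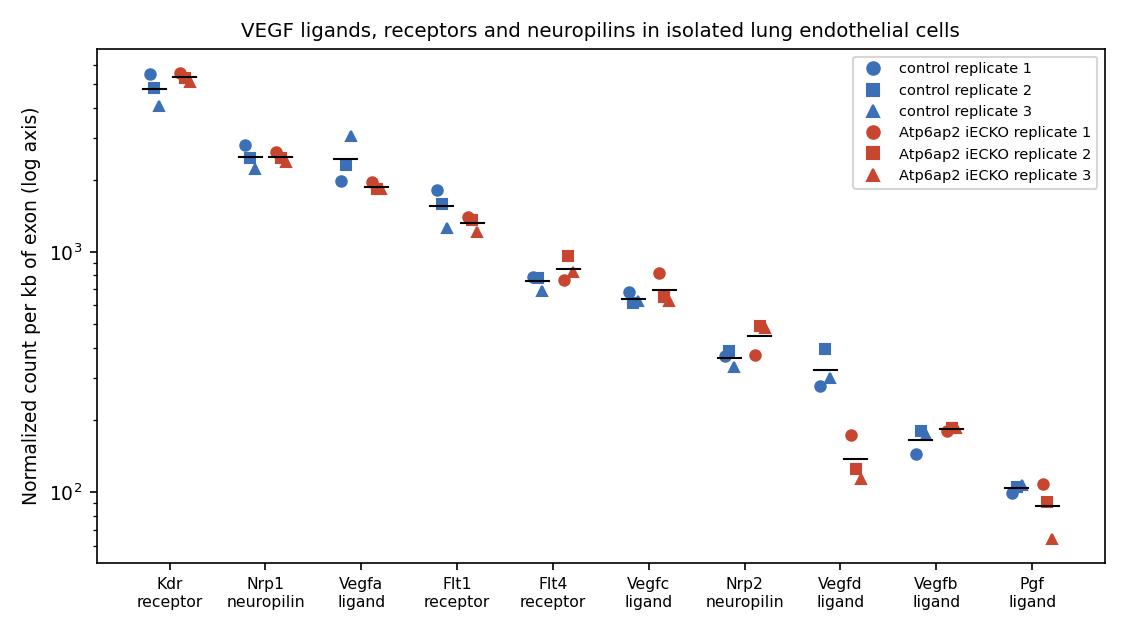
Normalized counts per kilobase of exon (log axis) for each member, ordered by control mean, with 1 marker per library and a black line at each genotype mean. *Kdr* sits highest, at 4781 per kilobase in controls, and *Vegfd* is the member whose iECKO libraries lie farthest below its controls.

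The receptors showed no change past the threshold. *Kdr* had 49614, 43389.8 and 36520.1 normalized counts in the controls and 50499, 48047 and 46341 in the iECKO libraries, a log2 fold change of 0.17 (SE 0.14, adjusted p = 0.495 by limma). *Flt1* had 24392, 21391 and 16993 in the controls and 18999.9, 18421 and 16357 in the iECKO libraries, a log2 fold change of -0.21 (SE 0.14, adjusted p = 0.421 by limma). For both genes the controls spread over a wider range than the iECKO libraries, with control replicate 1 high and control replicate 3 low, and the genotypes overlapped. Without control replicate 1 the log2 fold changes were 0.28 for *Kdr* and -0.092 for *Flt1*, and without control replicate 3 they were 0.057 and -0.35. *Flt4*, the receptor of lymphatic and sprouting endothelium, had 6518, 6452 and 5692 in the controls and 6307, 7963 and 6793 in the iECKO libraries, with a log2 fold change of 0.17 (SE 0.11, adjusted p = 0.388 by limma), which was 0.11 without control replicate 3 and 0.076 without iECKO replicate 2. Among the genes whose log2 levels over the 6 libraries were most like *Kdr* were *Tpm4*, a tropomyosin (Pearson r = 0.993), and *Ubap2l* (0.991). For *Flt1* they were *Senp6*, a SUMO protease (Pearson r = 0.995), *Slfn5* (0.995) and *Smim10l1* (0.993). For *Flt4* they were *Ammecr1* (0.997), *Strap* (0.990) and *Gtf2a2* (0.983). None of these genes passed the limma threshold. Here and below, such genes were the top few picked from 11321 genes over only 6 libraries. How high r runs among the best of so many unrelated genes was not tested.

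The neuropilins did not pass the threshold either. *Nrp1*, which pairs mainly with Kdr, had 27299, 24208 and 21638 normalized counts in the controls and 25539.7, 24229 and 23154 in the iECKO libraries. Its log2 fold change was 0.00 (95% interval -0.26 to 0.26, adjusted p = 0.997 by limma), and the sign turned when control replicate 2, control replicate 3 or iECKO replicate 1 was left out and when values were scaled to the endothelial markers. *Nrp2*, the coreceptor that pairs mainly with Flt4, had 4392, 4583 and 3939.6 in the controls and 4417, 5819 and 5731 in the iECKO libraries, a log2 fold change of 0.30 (95% interval 0.02 to 0.58, adjusted p = 0.185 by limma). iECKO replicate 1 lay among the controls and the other iECKO libraries above them; without that replicate the log2 fold change was 0.43 and the adjusted p 0.0477 by limma. The annotated genes Gm29083 and Gm37121 overlap *Nrp2*, and their reads may be counted with its own, since whether counting used strand was not stated. Over the 5 receptors and neuropilins the 95% intervals left room for folds between 0.689 and 1.49.

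*Flt1* and *Kdr* ranked the libraries alike within each genotype, and in the controls their ratio was tighter than either level. In the iECKO libraries the ratio varied about as much as *Kdr* did. Per kilobase, the ratio of *Flt1* to *Kdr* was 0.329, 0.330 and 0.311 in the controls and 0.252, 0.256 and 0.236 in the iECKO libraries. Every iECKO ratio lay below every control ratio, with means of 0.323 ± 0.0104 and 0.248 ± 0.0106 (SD, n = 3 each) and a log2 difference of -0.38. The exact two-sided permutation test gave p = 0.1, the smallest that 3 against 3 allows, and 0.2 adjusted over the 4 ratios examined. Read relative to *Kdr* in a fit over all genes that was added after the data were seen, *Flt1* was lower by limma (log2 difference -0.38, SE 0.094, adjusted p = 0.0330); in that fit 6.14% of genes were called, 5.57% lower. The call held without control replicate 1 (adjusted p = 0.0351) and was lost without any of the other 5 libraries (up to an adjusted p of 0.171) and without the mean-variance trend. *Flt1* made up 21.8% ± 0.708 of the per-kilobase receptor pool in the controls and 17.6% ± 0.638 in the iECKO libraries, and *Kdr* 67.5% ± 0.453 and 71.0% ± 1.33. Shares and ratios per kilobase depend on the length used, which for *Flt1* was 13504 bases of exon and 6895 in the longest transcript. The log2 difference of the ratio between genotypes does not depend on it. Of 11 general capillary markers 2 were lower and none was higher (5 and 0 at an unadjusted limma p below 0.05), with a median log2 fold change of -0.32 and sums of 226223 to 302701 normalized counts in controls and 201910 to 237256 in iECKO, with 0 to 2 lower when 1 library was left out. Of 11 aerocyte markers, a list that holds *Kdr* and *Nrp1*, 1 was lower and 1 higher, with a median of 0.00093 and sums, without those members, of 70774 to 85192 and 72404 to 85641. No marker of either list was at 0 in all libraries, and the part of these cell types in the ratio was not tested.

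The other ratios were less separate. The ratio of *Nrp1* to *Nrp2* per kilobase was 7.52, 6.39 and 6.65 in the controls and 7.00, 5.04 and 4.89 in the iECKO libraries, which overlapped (exact permutation p = 0.3, adjusted 0.4). The ratio of *Vegfa* to *Kdr* was 0.361, 0.480 and 0.751 in the controls and 0.349, 0.345 and 0.359 in the iECKO libraries. The genotypes did not overlap (exact permutation p = 0.1, adjusted 0.2), but control replicate 1 lay next to the iECKO libraries and without control replicate 3 the log2 difference moved from -0.53 to -0.25. *Pgf* to *Vegfa*, a ratio of ligands that compete for Flt1, overlapped (exact permutation p = 0.8).

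**Figure D3:**
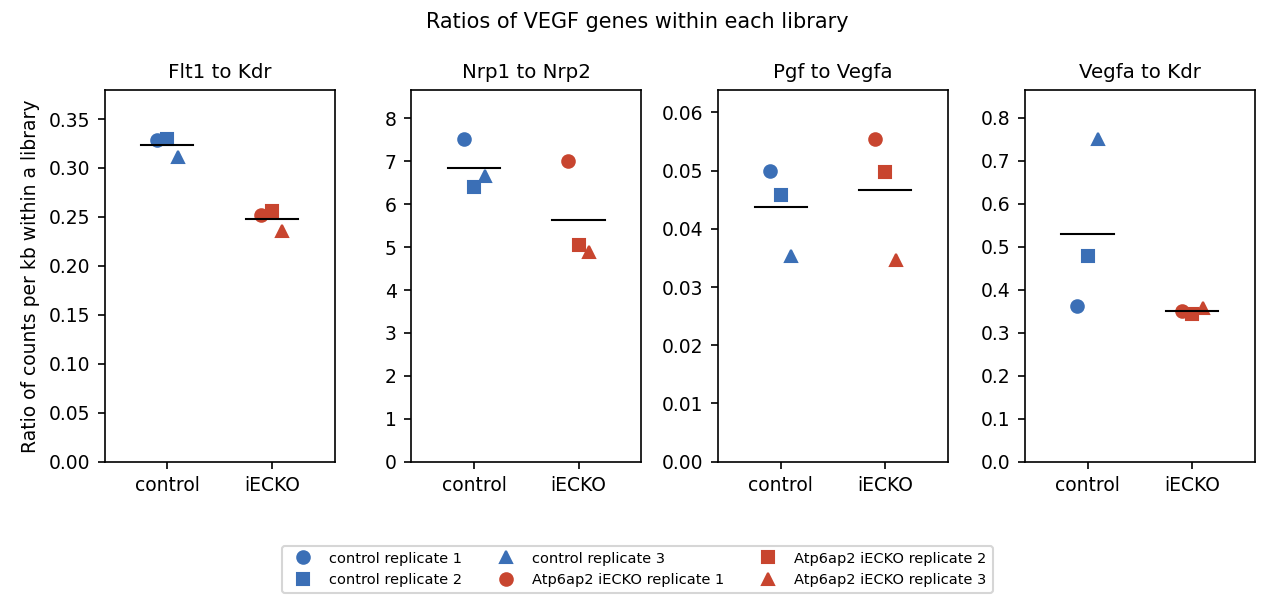
Ratio of per-kilobase normalized counts within each library for 4 pairs of members, with 1 marker per library and a black line at the mean of each genotype, on axes that start at 0. The *Flt1* to *Kdr* ratio separates the genotypes with little spread (0.311 to 0.330 against 0.236 to 0.256), while *Vegfa* to *Kdr* spreads from 0.361 to 0.751 in the controls.

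*Vegfd*, a lymphangiogenic ligand, was the member that changed. It had 665, 951 and 722 normalized counts in the controls and 417, 300.3 and 273 in the iECKO libraries. All iECKO libraries lay below all controls; the genotypes did not overlap, in either direction, for 3 of the 10 members and for 29.8% of all genes tested. The mean fell from 779 ± 152 to 330.3 ± 76.4 (SD, n = 3 each), a log2 fold change of -1.24 (SE 0.20, 95% interval -1.70 to -0.79, adjusted p = 0.0138 by limma). Its share of the per-kilobase ligand pool was 8.66%, 10.98% and 7.06% in the controls and 5.36%, 4.32% and 4.02% in the iECKO libraries. *Vegfd* lies on the X chromosome (GRCm38 X:164373378-164402650); among the libraries with *Xist* it had 665 and 951 normalized counts in controls against 417 and 273 in iECKO, and among those without it 722 against 300.3. When leaving out 1 library at a time, the log2 fold change ran from -1.42 to -1.09 and passed the threshold in 3 of 6 fits, with adjusted p up to 0.0561; the calls were lost without control replicate 3 (270 genes called in all, against 1193 with every library), iECKO replicate 2 (250) or iECKO replicate 3 (206). With an *Xist* covariate the adjusted p was 0.0220 by limma. With values scaled to the endothelial markers, where 4.91% of genes were called, the log2 fold change was -1.25 (adjusted p = 0.0150 by limma).

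Fibroblast markers moved the same way as *Vegfd*. Of 19 tested fibroblast markers 13 were lower in the iECKO libraries and none was higher, with a median log2 fold change of -1.47. At an unadjusted limma p below 0.05, 15 were lower and 1 higher. None of the 20 listed markers was at 0 throughout, and their sum was 161617 to 233932 normalized counts in controls and 80238 to 101411 in iECKO. *Macf1* was the largest part of that sum, with 59543, 76365 and 57862 in the controls and 49202, 44696 and 43761 in the iECKO libraries. *Macf1* itself did not pass (log2 fold change -0.48, adjusted p = 0.0778 by limma). Mural and smooth muscle markers behaved likewise, with 10 of 16 lower, a median of -1.53, and sums of 26588 to 38693 against 10450 to 13677. Leaving out 1 library gave 8 to 14 lower fibroblast markers and 6 to 12 lower mural ones, fewest without control replicate 3 or iECKO replicate 3 and, for the mural markers, also without iECKO replicate 2. Set against the mean log2 level of the fibroblast markers in the same library, a measure added after the data were seen, *Vegfd* was at -0.73, -0.58 and -1.20 in the controls and at -0.94, -0.91 and -0.87 in the iECKO libraries. These values overlapped and differed by -0.07 on average (exact permutation p = 0.8). Against the mural markers the difference was 0.26 (exact permutation p = 0.4). The fibroblast mean took in all 20 listed markers, with *Lum*, which was not tested, and *Mfap5* and *Pi16*, whose log2 fold changes were 0.55 and 1.12. The size of the difference thus depends on the markers averaged. With 3 libraries against 3, neither test can show that *Vegfd* moved with the markers. In bulk samples, fewer cells of a type and less RNA per cell cannot be told apart. The genes most like *Vegfd* in log2 level over the 6 libraries were sought among 11321 genes with a mean of at least 100. They were *C7*, a complement component (Pearson r = 0.999), *Cacna1d*, a calcium channel subunit (0.998), and *Adamts17*, a secreted metalloprotease (0.997). These share the libraries and their scaling. All 3 were lower in the iECKO libraries, with log2 fold changes of -1.82, -1.46 and -1.26, which follows from choosing them by likeness to *Vegfd*.

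*Vegfa* had 8510.0, 9877 and 13017 normalized counts in the controls and 8374, 7856 and 7886 in the iECKO libraries. The genotypes did not overlap, but the control replicates differed by more among themselves than control replicate 1 did from the iECKO libraries. The log2 fold change was -0.36 (SE 0.15, 95% interval -0.70 to -0.02, adjusted p = 0.184 by limma), and -0.19 without control replicate 3. That library also had the highest epithelial marker levels, with an alveolar type 1 sum of 41027 against 24305 to 33764 in the other 5 libraries and an alveolar type 2 sum of 70909 against 28735 to 41985; their part in the *Vegfa* values was not tested. The genes most like *Vegfa* over the 6 libraries were *Haghl* (Pearson r = 0.998), *Ldhb*, a lactate dehydrogenase subunit (0.994), and *Cep170b* (0.993).

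The remaining ligands did not pass the threshold. *Vegfc*, the main lymphangiogenic ligand, had 1673, 1499.6 and 1539.7 normalized counts in the controls and 1998, 1597 and 1528 in the iECKO libraries (log2 fold change 0.11, SE 0.12, adjusted p = 0.614 by limma). *Vegfb* had 231, 288 and 277 in the controls and 289, 298 and 298 in the iECKO libraries (log2 fold change 0.16, SE 0.14, adjusted p = 0.559 by limma), so the genotypes did not overlap although the nearest libraries were within 2 counts; the log2 fold change was 0.062 without control replicate 1. *Pgf* had 288, 306 and 312 in the controls and 315, 265 and 185 in the iECKO libraries (log2 fold change -0.28, SE 0.20, adjusted p = 0.464 by limma), where iECKO replicate 3 was low and iECKO replicate 1 high. Its log2 fold change was -0.064 without iECKO replicate 3 and -0.45 without iECKO replicate 1. Of 11 tested lymphatic endothelial markers 1, *Thy1*, was higher and none was lower, with a median log2 fold change of 0.24. At an unadjusted limma p below 0.05, which 23.9% of all genes reached, 4 were higher and 0 lower. The list itself holds *Flt4* and *Nrp2*, and *Nrp2* is 1 of those 4. The part of lymphatic cells in the *Nrp2* values was not tested. The *Thy1* call was lost without some libraries (0 to 1 of the 11 higher when 1 library was left out).

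**Figure D4:**
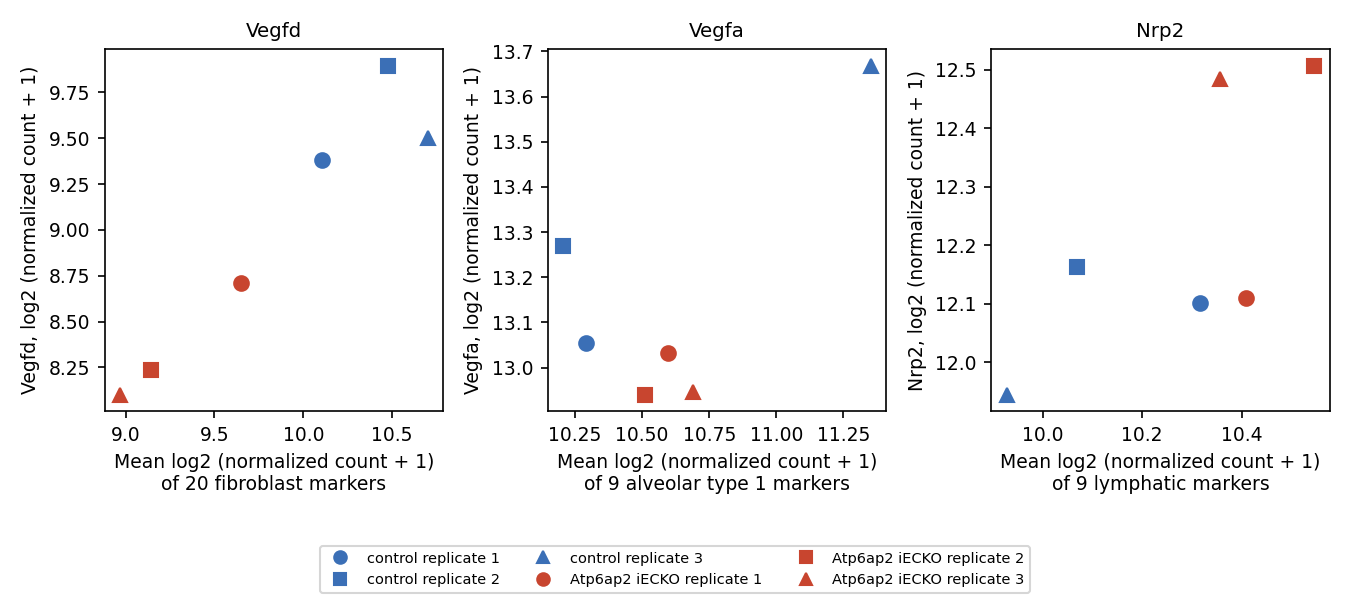
Log2 (normalized count + 1) of *Vegfd*, *Vegfa* and *Nrp2* against the mean log2 level of fibroblast, alveolar type 1 and lymphatic markers, with 1 marker per library. *Vegfd* and the fibroblast markers are both lower in all 3 iECKO libraries, and control replicate 3 is highest for both *Vegfa* and the alveolar type 1 markers.

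Around the receptors, most genes of the pathway did not pass the threshold. Of 57 signal transducers 3 were lower and 1 was higher, with a median log2 fold change of -0.06. Over all genes tested 4.97% were lower and 3.28% higher, the background for this list and those that follow. The lower ones were *Shc2*, an adaptor that binds Kdr (-1.07), *Hspb1*, the small heat shock protein at the end of the p38 branch (-0.94), and *Src*, the kinase that links Kdr to junction opening (-0.77); the higher one was *Nfatc2*, a transcription factor switched on by calcineurin (0.88). None of the 12 genes of the ERK and PKC branch or the 9 of the PI3K and nitric oxide branch passed the limma threshold. Over the whole list 12 were lower and 2 higher at an unadjusted limma p below 0.05, which 23.9% of all genes tested reached. Of 22 surface partners and trafficking genes 1 was lower, *Efnb2*, the ephrin that promotes internalization of Kdr and Flt4. *Efnb2* had 34841, 31325 and 30267 normalized counts in the controls and 23029, 19646 and 15838 in the iECKO libraries, without overlap (log2 fold change -0.73, SE 0.15, adjusted p = 0.0256 by limma). When 1 library was left out in turn, *Efnb2*, *Hspb1* and *Nfatc2* each passed in 1 of 6 fits, and *Shc2* and *Src* in 0 of 6, with adjusted p from 0.0512 to 0.155 for *Src*. All 4 signal transducer calls were lost under endothelial marker scaling, and the 3 lower ones also under library total scaling; those of *Shc2* and *Src* were lost with a replicate block as well.

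Genes that VEGF-A is known to induce in endothelium went both ways. Of 27 such genes 5 were lower and 2 were higher, with a median log2 fold change of -0.20. The log2 fold change was negative for 18 of the 27. At an unadjusted limma p below 0.05, which 23.9% of all genes reached, 10 were lower and 4 higher. *Nr4a3*, an orphan nuclear receptor induced within hours of VEGF-A, had 5782, 6553 and 4955 normalized counts in the controls and 2547, 2252 and 3202 in the iECKO libraries. Its log2 fold change was -1.12 (SE 0.15, adjusted p = 0.0103 by limma), and it passed when any 1 library was left out. *Nr4a2*, from the same receptor family, was lower by limma with a log2 fold change of -0.59, and *Mmp14*, a membrane metalloprotease, with -0.54. Fibroblast and mural markers fell as well (medians -1.47 and -1.53), and the part of such cells in the lower pathway genes was not tested. *Apln*, the tip cell peptide apelin, was higher, with 5810, 5365 and 5015 in the controls and 7239, 10818 and 12140 in the iECKO libraries (log2 fold change 0.87, SE 0.18, adjusted p = 0.0284 by limma). *Apln* also stands on the aerocyte list, as the 1 marker of that list counted as higher. *Hlx* (-0.53), *Dll4*, the Notch ligand of tip cells (-0.33), and *Cd34*, a sialomucin (0.43), also passed; they fall outside the rule for named genes and were chosen after their values were seen. When 1 library was left out in turn, *Mmp14* passed in 3 of 6 fits, *Hlx* in 2, *Apln*, *Nr4a2* and *Cd34* in 1 and *Dll4* in 0. The *Nr4a2* call was also lost under endothelial marker, library total and upper quartile scaling and with a replicate block, and the *Dll4* call under endothelial marker scaling.

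Among 18 genes of ligand maturation and matrix binding 1 was lower and 2 were higher, with a median log2 fold change of -0.13. *Sulf2*, a sulfatase that trims heparan sulfate and frees bound VEGF-A, rose from 350.1, 301 and 249.5 to 754, 599.6 and 674 normalized counts (log2 fold change 1.18, SE 0.16, adjusted p = 0.0103 by limma) and passed when any 1 library was left out. *Pcsk6*, a proprotein convertase, was higher by limma with a log2 fold change of 0.58, and *Mmp2*, a gelatinase made largely by stromal cells, was lower with -1.07. None of 9 regulators of HIF and *Vegfa* transcription passed the limma threshold, and 0 of them had an unadjusted p below 0.05 (median -0.16). Of 12 semaphorins and plexins that work with neuropilins 1 passed: *Sema3d*, a neuropilin ligand, had 219, 222 and 157 in the controls and 387, 529 and 576 in the iECKO libraries (log2 fold change 1.31, SE 0.21, adjusted p = 0.0138 by limma). Without control replicate 3, 270 genes were called in all, against 1193 with every library. In that fit no signal transducer and no surface partner was lower. Of the VEGF-A-induced genes 3 were lower and none higher, and *Sema3d* still passed. When 1 library was left out in turn, *Sema3d* passed in 4 of 6 fits, *Mmp2* in 2 and *Pcsk6* in 1, and the *Pcsk6* call was lost under endothelial marker scaling.

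**Figure D5:**
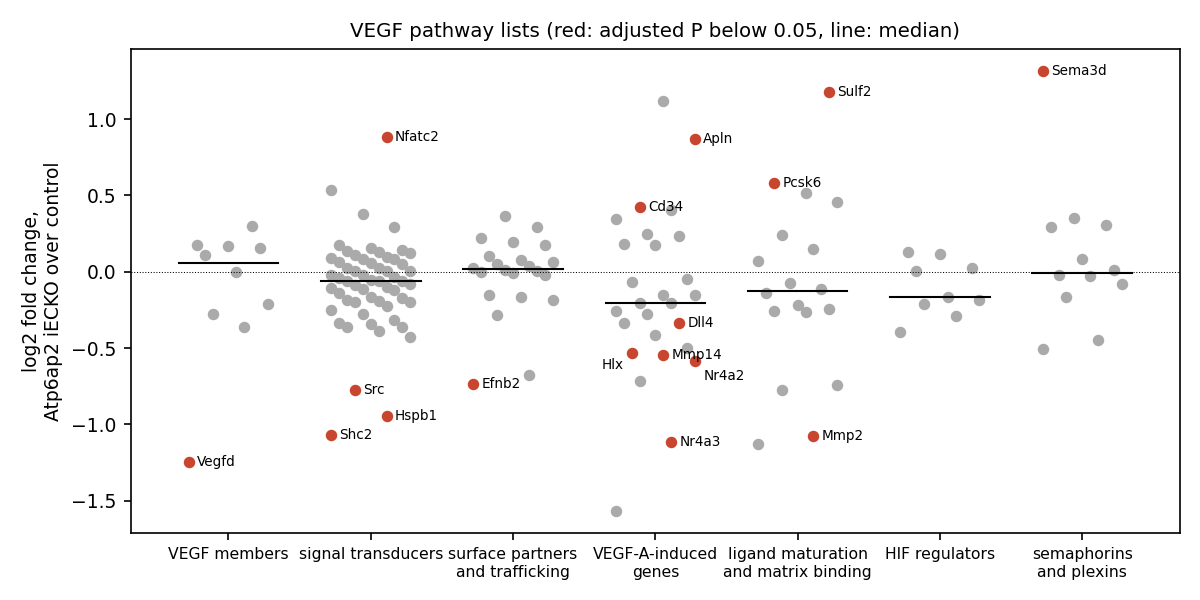
Log2 fold change (iECKO over control) of every tested gene in the VEGF members and 6 pathway lists, with 1 point per gene, a black line at each list's median and red points for limma adjusted p below 0.05. The medians lie between -0.20 and 0.06, and *Vegfd* and *Sema3d* are the red points at the bottom and top.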

How the data were processed

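RNA-Seq was done on poly(A) libraries (TruSeq RNA v2) of 3 control and 3 *Atp6ap2* iECKO iLEC samples. The authors aligned reads to mm10 and quantified genes with BaseSpace tools; the annotation, and whether counting used strand, were not given in the sources used here. The deposited signal values are estimated counts per gene that the authors had divided by a size factor for each library: 21.0% to 40.9% of low values were whole multiples of a common step (tolerance 0.01), and the median ratio was the same in every library, although the labels call them raw. No count test was therefore run, and read depth is unknown. Genes that reached a value of 10 in 3 or more libraries entered the test, limma 3.58.1 (R 4.3.3, mean-variance trend), on log2(value + 1), two-sided, with Benjamini-Hochberg adjustment and a threshold of 0.05, so fold changes of low genes are understated. The fit was tested on simulated data. Exon lengths and coordinates came from GENCODE M21 (GRCm38), and promoters from RefSeq. Ratios within a library were compared by exact permutation tests. Alternatives covered scaling, filter, pseudocount, trend, sample weights, a replicate block, an *Xist* covariate and left-out libraries. Named genes were all members, at most 4 genes past the threshold per other list by size of change, the targeted gene, and for each member the 3 genes most like it, printed for *Vegfd*, *Vegfa* and the receptors; 1 of these genes is not reported here. The members, lists and tests were chosen with earlier results of these data known.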

Additional observations from a re-analysis of the deposited data

How the results depend on the processing

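One member passed the threshold under every scaling, filter and pseudocount tried, under sample weights, the *Xist* covariate and endothelial marker scaling (added after the data were seen), and 0 passed without the mean-variance trend or at an adjusted p below 0.01. Leaving out 1 library at a time gave 0 to 2: 0 without control replicate 3, iECKO replicate 2 or iECKO replicate 3, and 2, *Vegfd* and *Nrp2*, without iECKO replicate 1. Without the trend *Vegfd* kept its log2 fold change of -1.24 with an adjusted p of 0.0525. *Nrp1* turned sign under endothelial marker scaling (-0.00399) and ran from -0.082 to 0.086 when 1 library was left out; *Vegfc* ran from -0.0065 to 0.187, negative without iECKO replicate 1. The log2 ratio of *Pgf* to *Vegfa* ran from -0.063 to 0.28, negative without control replicate 3 or iECKO replicate 1. *Flt1* relative to *Kdr* was -0.38 without the trend (adjusted p = 0.209) and ran from -0.41 to -0.35 when 1 library was left out. The cause of these shifts was not tested. *Atp6ap2* ran from -1.54 to -0.999 and passed in 1 of 6 such fits.

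Same-numbered control and iECKO libraries deviated together weakly (correlations of 0.25, 0.11 and 0.08, mean 0.15). Libraries with different numbers had correlations from -0.21 to 0.10 (mean -0.07). The main fit did not take the numbers as pairs, and whether they mark a shared batch was not tested. With a replicate block 1508 genes passed in place of 1193, and 1 member, *Vegfd* (adjusted p = 0.015); the block ended the calls of *Shc2*, *Src* and *Nr4a2* among the named pathway genes. With longest transcripts in place of all exons, *Flt1* (3035 per kilobase) and *Vegfa* (3033) changed places in the order of levels. With 3 libraries a genotype and unknown depth, changes smaller than the intervals given could not be detected.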
